A study of Mus musculus with 40 samples.

Results

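In the liver of fed mice, 426 of 14462 peaks of histone deacetylase 3 (HDAC3) had no peak of its corepressor partners NCoR or SMRT beside them. They were chosen by distance between peak centres: a peak of the HDAC3 list was taken where no centre of the NCoR or the SMRT list lay within 200 bp of its own centre. This was 2.95% of the HDAC3 list, with an exact 95% binomial interval of 2.68 to 3.23%. They are called HDAC3-only peaks here, a name that refers to the peak lists and not to a measured absence of the partners. The other 14036 HDAC3 peaks had both partners (8741 peaks), NCoR but not SMRT (5210 peaks) or SMRT but not NCoR (85 peaks).

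The lists came from chromatin immunoprecipitation followed by sequencing (ChIP-seq), which recovers the DNA that a protein is crosslinked to and maps it to the genome. All 3 lists were from the livers of male C57BL/6 mice of genotype Bcl6 fl/fl, fed ad libitum, in which the floxed Bcl6 alleles were not deleted, so that these animals served as the wild-type control of the series. Each list was made from 3 libraries of separate animals pooled together, and gave 14462 HDAC3, 35138 NCoR and 10654 SMRT peaks, 60254 in all. The series held 40 samples, and the other 31, which include the Bcl6 liver knockouts, the fasted livers and the inputs, were not analysed here.

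HDAC3 removes acetyl groups from histones and has little activity on its own: the deacetylase activating domain of NCoR or SMRT switches it on. The corepressors are in turn held on DNA by nuclear receptors and by repressors such as BCL6. In liver the complex is known for its work at genes of lipid and glucose metabolism and of the circadian clock. A peak of HDAC3 with neither partner called beside it is therefore a place where the list of the enzyme and the lists of its activators differ.

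Each list gave the chromosome, start and end of a peak on mm10 and nothing else. Peak height, replicate values and the depth of the libraries are not in these lists, so the strength of an HDAC3-only peak cannot be compared with that of the others here. Whether a partner peak lay just under the calling threshold at an HDAC3-only peak was not tested. The 95% intervals are exact (Clopper-Pearson) for shares and log-based for odds ratios, and cover counting error within 1 pooled list. The tests are two-sided Fisher's exact tests over peaks. Peaks are not replicates of an animal, and peaks that lie near each other are not independent.

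The strings more frequent in HDAC3-only peaks than in all other HDAC3 peaks fell into a pair of settings, at start sites and away from them. Those at start sites did not pass the test within promoters alone. None of these strings passed in windows of 100 bp, as given below. The first set shows the matches to CCGGAAGT, the core site of ETS factors of the ELK and GABP kind, which bind promoters of broadly expressed genes. Only 7 of the 426 windows of 200 bp held it, all of them at promoters, and 66 of all 14462 HDAC3 windows did (0.456%). Both strands were searched, the bases are read from the plus strand of mm10, and capitals mark the match, which may be its reverse complement. The name is that of the nearest protein-coding gene.
Dus1l chr11:120796362-120796422: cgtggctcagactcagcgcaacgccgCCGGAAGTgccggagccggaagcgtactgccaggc
Nudt6 chr3:37420244-37420304: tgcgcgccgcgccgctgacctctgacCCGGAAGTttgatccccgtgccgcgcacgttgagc
Top3b chr16:16870735-16870795: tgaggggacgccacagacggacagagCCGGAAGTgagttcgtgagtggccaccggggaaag
Heatr6 chr11:83753661-83753721: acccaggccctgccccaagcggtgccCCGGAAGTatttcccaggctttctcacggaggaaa
Taf2 chr15:55072171-55072231: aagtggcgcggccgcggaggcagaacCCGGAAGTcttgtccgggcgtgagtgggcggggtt
Zfp787 chr7:6156090-6156150: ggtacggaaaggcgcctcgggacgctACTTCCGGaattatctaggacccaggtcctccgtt
Fahd2a chr2:127444611-127444671: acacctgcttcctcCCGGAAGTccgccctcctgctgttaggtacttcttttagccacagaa

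The second set shows the matches to AAGATGGCG, the site of the zinc finger factor YY1, which is often found just downstream of start sites. It stood in 4 HDAC3-only windows and in 11 of all HDAC3 windows (0.0761%). Capitals mark the match on either strand, and 3 of the 4 lay at promoters.
Gm49320 chr8:4238881-4238941: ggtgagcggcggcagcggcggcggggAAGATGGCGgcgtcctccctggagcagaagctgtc
Lin52 chr12:84451496-84451556: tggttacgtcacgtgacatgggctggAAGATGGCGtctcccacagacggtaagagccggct
Ctnnb1 chr9:120933453-120933513: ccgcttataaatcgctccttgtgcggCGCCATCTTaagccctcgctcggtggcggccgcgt
Hcfc2 chr10:82699115-82699175: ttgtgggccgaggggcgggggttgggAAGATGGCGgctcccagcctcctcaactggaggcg

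The third set shows matches to the core of the site of CTCF, the zinc finger factor that sits at boundaries of chromatin loops. It was found in 7 HDAC3-only windows, none at a promoter, and in 59 of all HDAC3 windows (0.408%). The lines give 6 of them, with capitals on the match. The Arid1b and Gm5136 matches have the same letters, and the centres of both peaks fell on a base masked as a repeat. The lines of all 3 sets were chosen because these motifs passed the test given below, after their matches were seen.
Kpna6 chr4:129671614-129671674: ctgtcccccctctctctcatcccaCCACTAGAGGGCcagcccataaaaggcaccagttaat
Olfr94 chr17:37203794-37203854: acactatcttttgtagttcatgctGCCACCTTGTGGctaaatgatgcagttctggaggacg
Abcc12 chr8:86536580-86536640: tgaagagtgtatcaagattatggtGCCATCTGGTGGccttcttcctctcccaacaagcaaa
Arid1b chr17:5029240-5029300: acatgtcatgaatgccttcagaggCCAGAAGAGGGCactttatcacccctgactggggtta
Gm5136 chr10:108657807-108657867: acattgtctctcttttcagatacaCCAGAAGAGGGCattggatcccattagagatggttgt
Specc1l chr10:75151516-75151576: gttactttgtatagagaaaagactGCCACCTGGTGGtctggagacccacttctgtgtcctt

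HDAC3-only peaks lay at promoters more often than other HDAC3 peaks did. Of the 426, 117 had their centre from 1000 bp before to 100 bp after an annotated start site (27.5%, interval 23.3 to 32.0%). Over all HDAC3 peaks the share was 10.5%, and over the other 14036 it was 9.996%, with an odds ratio of 3.41 (2.74 to 4.25) and an adjusted p of 1.02e-22 in Fisher's exact test, adjusted by Benjamini-Hochberg over 10 tests of location and sequence. Of the remaining HDAC3-only peaks, 165 lay in introns (38.7%), 109 between genes (25.6%), 18 in coding exons (4.23%) and 17 in other exons (3.99%). In the other HDAC3 peaks the intron share was 51.2% and the intergenic share 33.9%.

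**Figure D1:**
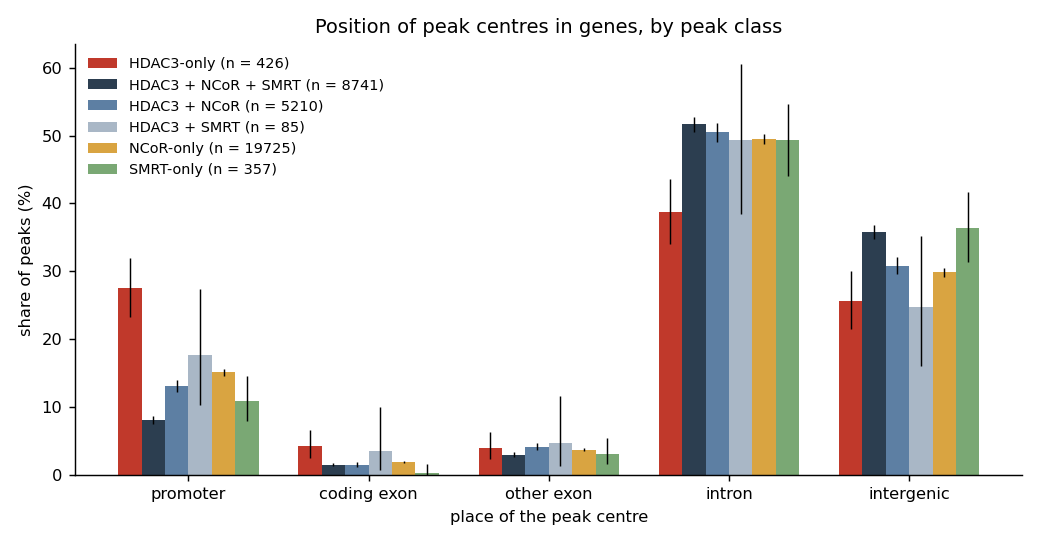
Share of peak centres in promoters, exons, introns and between genes (y axis, percent), for the 6 classes of peaks; bars give the share and lines the exact 95% interval. The promoter bar of the 426 HDAC3-only peaks stands at 27.5%, above those of peaks with NCoR and SMRT (8.08%), with NCoR but not SMRT (13.1%), with SMRT but not NCoR (17.6%, 85 peaks), of NCoR-only peaks (15.1%) and of SMRT-only peaks (10.9%).

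The promoter share was also compared with that of single classes. Of the 85 HDAC3 peaks with SMRT but not NCoR, 15 lay at promoters (17.6%, interval 10.2 to 27.4%), an interval that overlaps that of HDAC3-only peaks, and this pair was not tested. Promoters held 682 of the 5210 HDAC3 peaks with NCoR but not SMRT (13.1%), and the difference from HDAC3-only peaks had an odds ratio of 2.51 (2.002 to 3.16) and an adjusted p of 7.60e-13. NCoR-only peaks, the 19725 NCoR peaks with no HDAC3 or SMRT centre within 200 bp, were at promoters in 15.1%, with an odds ratio of 2.13 (1.72 to 2.65) and an adjusted p of 4.61e-10. The 357 SMRT-only peaks were at promoters in 10.9%, with an odds ratio of 3.09 (2.08 to 4.58) and an adjusted p of 2.39e-08. These 3 comparisons are among 24 that were added after the data were seen, with Fisher's exact test adjusted over the 24. In each of the 3 the share was higher in HDAC3-only peaks.

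The promoters that held HDAC3-only peaks were mostly those of protein-coding genes, 105 of 117 (89.7%) against 1052 of 1403 (74.98%) for other HDAC3 peaks, with an odds ratio of 2.92 (1.59 to 5.37) and an adjusted p of 0.000277. A start site on each strand lay within 500 bp of the centre at 21 of the 117 (17.9%) and at 130 of the 1403 (9.27%), with an odds ratio of 2.14 (1.29 to 3.55) and an adjusted p of 0.00702. This second call was lost against HDAC3 peaks with NCoR but not SMRT, where the odds ratio was 1.60 and the unadjusted p 0.0989.

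Around start sites the peaks sat differently. Among centres within 500 bp of the nearest start site, 78 of 134 HDAC3-only centres lay downstream of it (58.2%), on the transcribed side, and 547 of 1423 other HDAC3 centres did (38.4%). The odds ratio was 2.23 (1.56 to 3.20), with an adjusted p of 3.08e-05 in Fisher's exact test. Downstream shares were 43.4% for HDAC3 peaks with NCoR but not SMRT, 42.4% for NCoR-only peaks and 34.3% for SMRT-only peaks, and all 3 differences passed the test (adjusted p of 0.00425, 0.00117 and 0.0218 over the 24 added comparisons). The median promoter centre of HDAC3-only peaks was 15 bp upstream of the start site, with quartiles at 183 bp upstream and 50 bp downstream. For other HDAC3 promoter peaks the median was 110 bp upstream, with quartiles at 323.5 and 11 bp upstream.

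**Figure D2:**
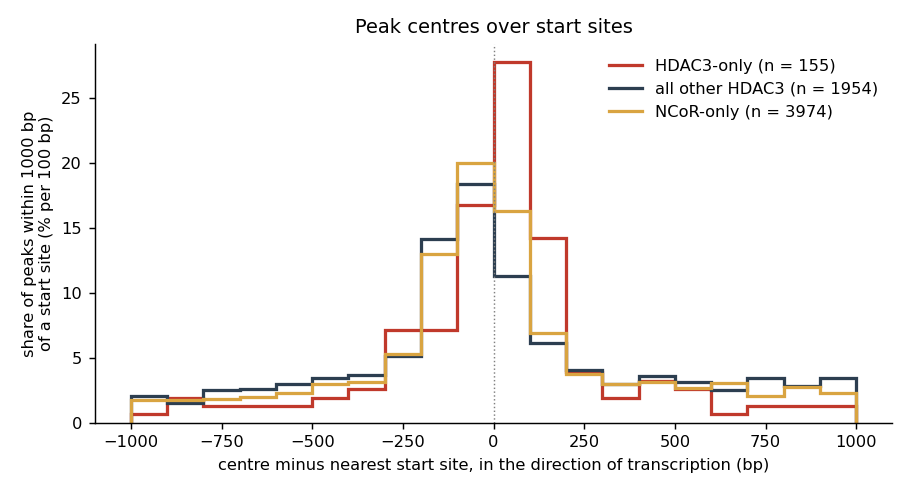
Distance of the peak centre from the nearest annotated start site (x axis, bp, positive downstream) against the share of the peaks that lie within 1000 bp of one (y axis, percent per 100 bp). The first 100 bp downstream held 43 of 155 HDAC3-only peaks (27.7%), 11.3% of other HDAC3 peaks and 16.3% of NCoR-only peaks, and the 100 bp just upstream held 16.8%, 18.4% and 20.005%.

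HDAC3-only peaks were richer in CpG. A 500 bp window around the centre was called CpG island-like where its GC content was at least 50% and its observed/expected CpG at least 0.6. That held for 108 of 426 HDAC3-only peaks (25.4%, interval 21.3 to 29.8%), for 5.94% of all HDAC3 peaks and for 751 of the other 14036 (5.35%), with an odds ratio of 6.01 (4.77 to 7.56) and an adjusted p of 4.51e-39 in Fisher's exact test. Among the single classes tested, NCoR-only peaks had the nearest share, 11.8% (odds ratio 2.53, 2.03 to 3.17, adjusted p of 3.56e-13). HDAC3 peaks with SMRT but not NCoR were not among those classes. Islands overlap with promoters, so the shares were also taken within each setting. At promoters 79 of 117 HDAC3-only peaks were CpG island-like (67.5%) and 522 of 1403 others were (37.2%), with an odds ratio of 3.51 (2.35 to 5.24) and an adjusted p of 4.48e-10 over 4 such tests. Away from promoters the counts were 29 of 309 (9.39%) and 229 of 12633 (1.81%), with an odds ratio of 5.61 (3.75 to 8.40) and an adjusted p of 1.41e-11.

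Against NCoR-only promoter peaks the CpG difference did not pass. Of 2976 NCoR-only promoter peaks 58.5% were CpG island-like, and the odds ratio of 1.48 had an interval of 0.996 to 2.19 and an adjusted p of 0.0700 over the 24 added comparisons. Against promoter peaks with HDAC3 and NCoR but not SMRT, where 343 of 682 were CpG island-like (50.3%), it was 2.05 (1.36 to 3.11, adjusted p of 0.00165).

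Of the 29 CpG island-like peaks away from promoters, 22 had their centre more than 100 and up to 1000 bp downstream of a start site, just past the promoter window. The genes there include Hcfc2, a host cell factor, Polm, a DNA polymerase of end joining, Axin2, a brake on WNT signalling, Epha2, an ephrin receptor, Nup210, a nuclear pore protein, and Nfil3, a repressor of the clock output. Their centres lay 190, 121, 241, 198, 183 and 424 bp downstream of the start site. They were chosen after their values were seen. The 18 peaks in coding exons were more than the share of other HDAC3 peaks there (4.23% against 1.503%, odds ratio 2.89, 1.77 to 4.72, adjusted p of 0.000277, a Fisher's exact test added after the data were seen). Of the 18, 8 were likewise past 100 and within 1000 bp downstream of a start site. Neither the 22 of 29 nor the 8 of 18 was counted for other HDAC3 peaks, so neither is called particular to HDAC3-only peaks.

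**Figure D3:**
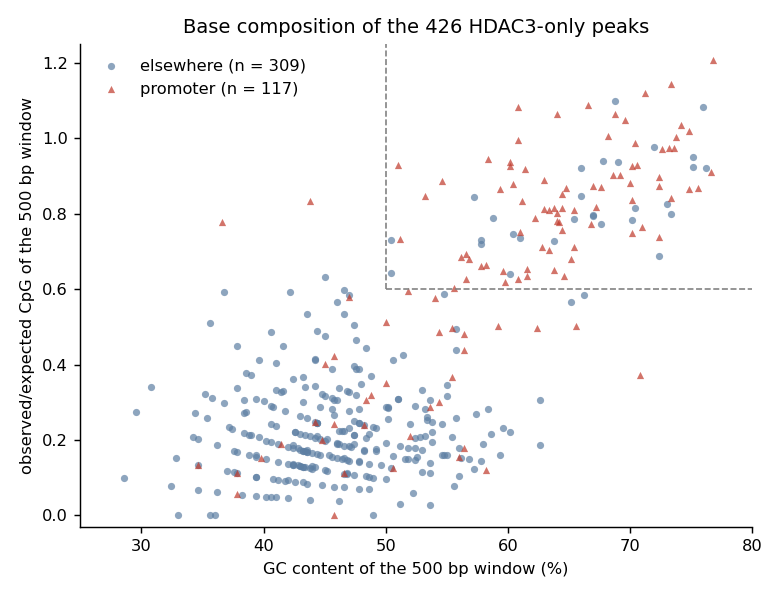
GC content (x axis, percent) against observed/expected CpG (y axis, ratio) of the 500 bp window of each of the 426 HDAC3-only peaks, with 117 promoter peaks as triangles and 309 others as circles; the dashed lines bound the CpG island-like range. The promoter peaks have a median GC of 61.4% and a median CpG ratio of 0.756, and the others 46.2% and 0.215.

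Base composition differed between HDAC3-only peaks at promoters and elsewhere. Promoter HDAC3-only peaks had a median GC content of 61.4% (quartiles 54.4 and 67.6%) and a median CpG ratio of 0.756, and the promoter peaks of other HDAC3 sites had medians of 53.8% and 0.411. Away from promoters the medians were close, 46.2% and 46.6% for GC and 0.215 and 0.200 for the CpG ratio. The 200 bp window of a promoter HDAC3-only peak held a median of 16 CpG, and that of another HDAC3 promoter peak 5. These medians are given with no test.

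Repeats and the X chromosome did not set the peaks apart at the threshold of 0.05. The centre fell on a soft-masked repeat base in 31 HDAC3-only peaks (7.28%) and in 8.98% of the others, with an odds ratio of 0.796 (0.550 to 1.15) and an adjusted p of 0.262. The X chromosome held 9 HDAC3-only peaks (2.11%) and 1.20% of the others, with an odds ratio of 1.78 (0.905 to 3.51) and an adjusted p of 0.122. Chromosomes 4, 8 and 9 held the most, 36, 33 and 31 peaks. As a share of a chromosome's HDAC3 peaks the autosomes ran from 1.90% on chromosome 6 to 4.18% on chromosome 8.

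Motifs were searched as fixed strings in the 200 bp around each centre, on both strands, 19 in all, and each adjusted p is from Fisher's exact test with Benjamini-Hochberg adjustment over the 19. A match is a string in the window and not a measured binding site, and a window without one says only that these letters are missing from it. In HDAC3-only peaks 3 motifs were more frequent and 1 was less frequent than in other HDAC3 peaks. The ETS string stood in 7 of 426 windows (1.64%) and 59 of 14036 (0.420%), with an odds ratio of 3.96 (1.797 to 8.72) and an adjusted p of 0.0152. The YY1 string stood in 4 (0.939%) and 7 (0.0499%), with an odds ratio of 18.997 (5.54 to 65.1) and an adjusted p of 0.00197. The CTCF core stood in 7 (1.64%) and 52 (0.370%), with an odds ratio of 4.49 (2.03 to 9.95) and an adjusted p of 0.0106. Each of these rests on few peaks, 7 at most.

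The string searched for HNF4, the nuclear receptor that keeps hepatocyte genes on, was less frequent. Its half-site, any of CAAAGTCCA, CAAAGTTCA, CAAAGGTCA and CAAAGGCCA, stood in 15 HDAC3-only windows (3.52%) and 1187 of the others (8.46%), 8.31% of all HDAC3 windows. The odds ratio was 0.395 (0.235 to 0.664), with an adjusted p of 0.00151. Neither setting alone passed the threshold in Fisher's exact test. At promoters the half-site stood in 1 of 117 HDAC3-only windows (0.855%) and 89 of 1403 others (6.34%), with an adjusted p of 0.117. Away from promoters the counts were 14 of 309 (4.53%) and 1098 of 12633 (8.69%). The odds ratio there was 0.499 (0.291 to 0.855), with an adjusted p of 0.0698. Over all windows the HDAC3-only share was also lower than in HDAC3 peaks with NCoR but not SMRT (7.89%, adjusted p of 0.00163 over the 24 added comparisons) and in NCoR-only peaks (7.15%, adjusted p of 0.00474). SMRT-only peaks had 5.04% (odds ratio 0.687, 0.341 to 1.38, adjusted p of 0.372). In 2 HDAC3-only windows the half-site shared bases with a match to DR1, the direct repeat bound by PPAR and HNF4, and no other pair of motifs overlapped. Each of the half-site strings can form the end of the DR1 string, so a match is not specific to HNF4. DR1 itself stood in 4 HDAC3-only windows (0.939%) and in 1.67% of the others (adjusted p of 0.631).

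The ETS and CTCF calls depended on the comparison group. Against HDAC3 peaks with NCoR but not SMRT the odds ratios were 2.22 for ETS (0.985 to 4.98) and 3.33 for CTCF (1.44 to 7.72), with adjusted p of 0.311 and 0.0648 over the 19 motifs and of 0.0935 and 0.0189 over the 24 added comparisons. The YY1 string kept its call there, with an odds ratio of 8.22 (2.31 to 29.2). Against NCoR-only peaks, where it stood in 50 of 19725 windows (0.253%), the YY1 odds ratio was 3.73 (1.34 to 10.4, adjusted p of 0.0367), that of CTCF was 2.499 (1.16 to 5.38, adjusted p of 0.0367) and that of ETS was 1.59 (0.744 to 3.40, adjusted p of 0.232). In the 357 SMRT-only peaks ETS stood in 0 windows (adjusted p of 0.0266), YY1 in 0 (adjusted p of 0.142) and CTCF in 1 (adjusted p of 0.0929). In windows of 100 bp the ETS, YY1 and CTCF calls were all lost, with adjusted p of 0.318, 0.0517 and 0.0708 and odds ratios of 2.84, 22.1 and 6.63.

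**Figure D4:**
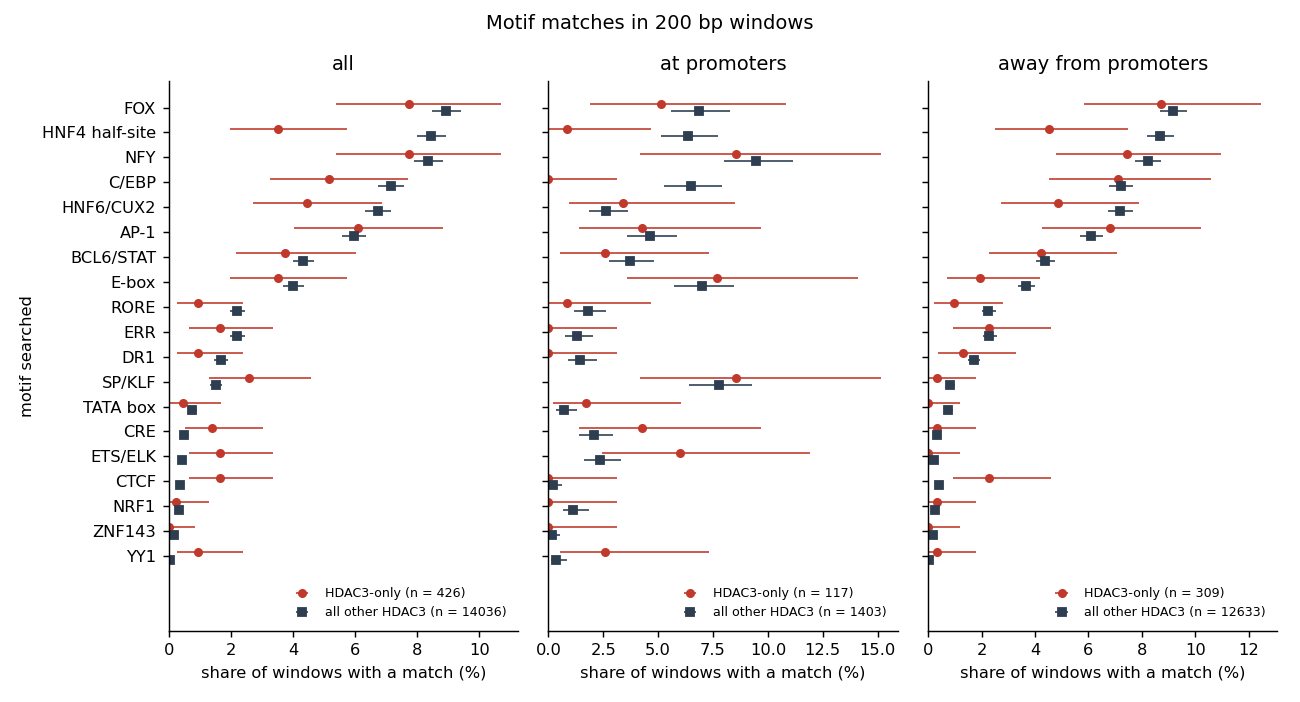
Share of 200 bp windows with a match (x axes, percent) for the 19 motifs (y axis), in all peaks, in promoter peaks and in peaks away from promoters; circles are HDAC3-only peaks, squares all other HDAC3 peaks, and lines exact 95% intervals. HNF4 half-sites stand lower in HDAC3-only peaks in the first panel (3.52% against 8.46%), and CTCF higher away from promoters (2.27% against 0.388%).

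Within promoters, where HDAC3-only peaks were concentrated, the ETS and YY1 differences did not pass. The ETS string stood in 7 of 117 HDAC3-only promoter windows (5.98%) and 33 of 1403 others (2.35%), with an odds ratio of 2.64 (1.14 to 6.11) and an adjusted p of 0.140. The YY1 string stood in 3 (2.56%) and 5 (0.356%), with an adjusted p of 0.118. The C/EBP string, any of TTGCGCAA, TTGTGCAA, TTACGCAA and TTATGCAA, the site of liver-enriched leucine zipper factors, was the 1 motif past the threshold at promoters. It stood in 0 of 117 HDAC3-only windows, which allows a share of up to 2.56% by 3 counts of the total (exact upper limit 3.104%), and in 91 of 1403 others (6.49%), with an adjusted p of 0.0166. In all HDAC3 windows its share was 7.09%. This call was lost against HDAC3 peaks with NCoR but not SMRT (adjusted p of 0.467). Away from promoters C/EBP stood in 22 of 309 HDAC3-only windows (7.12%) and 7.22% of the others (adjusted p of 1).

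Away from promoters CTCF was the 1 motif past the threshold, in 7 of 309 HDAC3-only windows (2.27%) and 49 of 12633 others (0.388%), with an odds ratio of 5.95 (2.67 to 13.2) and an adjusted p of 0.00668. Without repeat-masked bases the adjusted p was 0.0723, with an odds ratio of 5.31. The 6 printed CTCF matches lay 14 to 76 bp from the peak centre, in introns of Arid1b, Kpna6 and Abcc12, between genes near Olfr94, and in introns outside the bodies of Specc1l and Gm5136, which only have the nearest protein-coding start site. The nearest NCoR centre was 2308 bp away at the Abcc12 peak and at least 13328 bp away at the other 5.

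Most of the 19 motifs did not pass the threshold. The BCL6/STAT string, any of TTCCNAGAA, TTCCNGGAA, TTCTNAGAA and TTCTNGGAA, stood in 16 HDAC3-only windows (3.76%), in 4.32% of the others and in 4.31% of all HDAC3 windows, with an odds ratio of 0.863 (0.521 to 1.43) and an adjusted p of 0.915. AP-1 (TGACTCA) stood in 6.10% and 5.96%, the forkhead string TGTTTAC in 7.75% and 8.93% and the strings of NFY in 7.75% and 8.36%. For NFY the string CCAATCA counted, as did the string CCAATGA and the string CCAATGG. No match to any of the 19 motifs was present in 238 of the 426 HDAC3-only windows, and 44.1% held at least 1, against 48.8% of the others.

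The 10 promoter peaks closest to a protein-coding start site had their centres within 11 bp of it. They lay at Zmiz1, a coactivator of the PIAS family (0 bp), Ccn1, a matricellular growth factor (2 bp downstream), Lrig1, a membrane brake on growth factor receptors (2 bp), Rcan2, a regulator of calcineurin (5 bp), Dus1l, a tRNA dihydrouridine synthase (6 bp upstream), Prpf19, a splicing factor (9 bp), Nudt6, a nudix hydrolase (9 bp), Ttc38 (10 bp upstream), Efhd2, a calcium-binding protein (10 bp upstream), and Gnptab, the enzyme that marks lysosomal proteins with mannose phosphate (11 bp). Their CpG ratios ran from 0.619 at Ttc38 to 1.09 at Zmiz1. All 10 passed the CpG island-like rule.

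The distance to a partner varied widely among these 10. At Ccn1 (chr3:145649873-145650085) the nearest NCoR centre lay 371 bp away and the nearest SMRT centre 23734 bp away. At Gnptab (chr10:88379131-88379343) they lay 105640 and 105553 bp away, and the nearest other HDAC3 centre 105609 bp away. At Zmiz1 (chr14:25459161-25459373) NCoR was 1583 bp away and SMRT 7332 bp.

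The peaks with the ETS string at promoters included Dus1l and Nudt6, Top3b, a topoisomerase (39 bp downstream of its start site), Heatr6 (52 bp downstream) and Taf2, a subunit of the general factor TFIID (65 bp upstream). NCoR centres were 982 to 28548 bp away from these 5. The YY1 string stood at Map2k7, a kinase of the JNK pathway, with the start site of the gene model Gm49320 23 bp upstream, at Lin52, a subunit of the MuvB cell cycle complex (48 bp downstream), and at Ctnnb1, which encodes beta-catenin (55 bp downstream). All 3 centres were on the transcribed side, and the CpG ratio reached 1.21 at Ctnnb1, the highest of the 426. The single HNF4 half-site at a promoter lay at the microRNA gene Mir6383 on the X chromosome, with a CpG ratio of 0.0573.

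Genes of the lists drawn up for liver metabolism, the clock and stress were counted among the peaks. Each peak was given to the nearest protein-coding start site, at any distance, so a peak counted for a gene can lie far from it. The 30 listed fatty acid oxidation and ketone genes had 0 of the 426 HDAC3-only peaks and 84 of all 14462 HDAC3 peaks. The 26 listed lipid synthesis genes had 0 and 74. These lists do not hold every lipid gene: Elovl1, outside both, had an HDAC3-only peak 66 bp downstream of its start site. A count of 0 allows a share of up to 0.704% of HDAC3-only peaks by 3 counts of the total (exact upper limit 0.862%). Gluconeogenesis and glucose genes had 1 (Pfkfb3, 137420 bp from the peak) and 87, and clock genes 1 (Nfil3, 424 bp from the peak) and 66. No enrichment was tested, and at the 2.95% share of the whole HDAC3 list these small counts are not read as a difference.

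Immediate early genes had 4 HDAC3-only peaks of 170, at Ccn1, Maff, Atf3 and Dusp6, and the first pair were at promoters. The Maff peak (chr15:79347982-79348194), beside a small Maf factor of the oxidative stress response, lay 24 bp downstream of the start site with NCoR 3224 bp away. Heat shock genes had 2 of 20, Hsph1 and Pdia6. Hsph1, a partner of HSP70, had the peak 63 bp upstream of its start site (chr5:149636166-149636378), with NCoR 56444 bp and SMRT 439516 bp away. The promoters of Hmox1, heme oxygenase (30 bp upstream), and Sod1, superoxide dismutase (33 bp upstream), each had an HDAC3-only peak too, and were chosen after their values were seen. At Sod1 an NCoR centre lay 541 bp away and at Hmox1 3933 bp.

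Lists of housekeeping functions had single peaks or a few. Mitochondrial ribosomal proteins had 3 of 26 HDAC3 peaks (Mrpl16, Mrpl20 and Mrpl48), cytosolic ribosomal proteins 1 of 47 (Rpl14), splicing factors 2 of 53 (Prpf19 and Rbm6), RNA polymerase and general factors 1 of 52 (Taf2), histones 1 of 8 (Hist1h4b), and translation factors 0 of 35. Zinc finger genes had 8 of 226, of which those at Zfp263, Zfp395, Zfp688 and Zfp787 were at promoters, solute carriers 11 of 358 and cytochrome P450 genes 2 of 146 (Cyp2a4 and Cyp2r1). Oxidative phosphorylation genes had 1 of 34, proteasome genes 1 of 24, ubiquitin genes 3 of 182, DNA replication genes 1 of 55, tRNA synthetases 0 of 16 and the genes that the study itself discusses 0 of 79. No list was tested, and none of these counts is called particular to its list.

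Markers of liver cell types were counted in the same way, over lists of unequal length. The 25 hepatocyte marker genes had 54 HDAC3 peaks, 2 of them HDAC3-only (Apoa1 and Apoh), and genes of hepatocyte transcription factors 93 and 0. The 15 endothelial markers had 24 and 0, the 10 cholangiocyte markers 28 and 1 (Sox9, 308148 bp from the peak), the 17 Kupffer cell and macrophage markers 3 and 0, the 14 stellate cell markers 3 and 0, and the 16 lymphocyte markers 2 and 0. These counts do not set hepatocyte markers above those of cholangiocytes. The part that cells other than hepatocytes have in the HDAC3-only peaks was not tested.

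The genes of Bcl6, NCoR and HDAC3 themselves held none. Bcl6 had 8 HDAC3 peaks and Ncor1, which encodes NCoR, had 2, none of them HDAC3-only. No HDAC3 peak had Hdac3 as its nearest gene. The 426 peaks had 410 nearest genes, 16 of which had 2 and none 3 or more. Lrp10, which encodes a lipoprotein receptor family member, was chosen from these 16 after its values were seen: both of its HDAC3 peaks were HDAC3-only, no NCoR or SMRT peak had it as nearest gene, and the nearest NCoR centre was 31842 bp from one and 33538 bp from the other.

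At the genes with an HDAC3-only peak at their promoter, partners were often found elsewhere. Of 113 such protein-coding genes, 74 (65.5%) had an NCoR peak that took the same nearest start site, 39 (34.5%) an SMRT peak, 45 another HDAC3 peak, and 39 (34.5%) neither partner. For the 1078 genes of other HDAC3 promoter peaks the shares were 96.2% for NCoR, 67.6% for SMRT and 3.803% for neither. Those shares include the partner peak that put the HDAC3 peak in its class, so they are set side by side with no test.

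The distances that chose the peaks are a description. The nearest partner centre lay between 202 and 1085886 bp from an HDAC3-only centre, with a median of 3209 bp and quartiles of 540 and 14832 bp. It lay within 400 bp for 58 peaks (13.6%), between that and 1000 bp for 99 (23.2%), from there to 10 kb for 129 (30.3%), to 100 kb for 118 (27.7%), and farther for 22 (5.16%). It was NCoR for 367 of the 426 (86.2%). In 7 peaks the HDAC3 interval shared at least 1 base with an NCoR or SMRT interval, since intervals were 212 bp long for HDAC3 and SMRT and 228 bp for NCoR, end minus start.

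**Figure D5:**
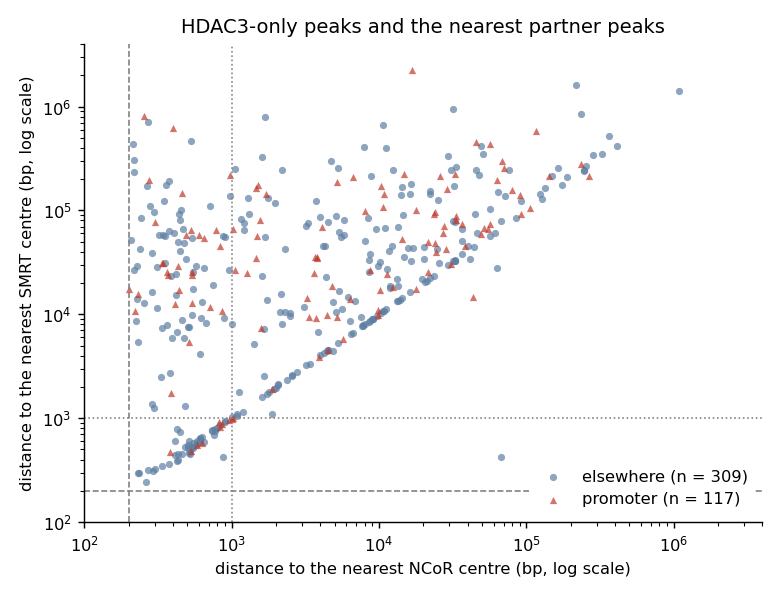
Distance from each of the 426 HDAC3-only centres to the nearest NCoR (x axis, bp) and SMRT (y axis, bp) centre, both on log scales, with 117 promoter peaks as triangles; dashed lines mark 200 bp, the distance that chose the peaks, and dotted lines 1000 bp. A band of peaks lies on the diagonal, where NCoR and SMRT are equally far, and 157 peaks lie left of or below a dotted line.

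The peaks just inside the threshold lay 202 bp from NCoR at the Gnpat promoter (chr8:124862733-124862945), 206 bp from NCoR between genes near Myog (chr1:134294111-134294323) and 214 bp from NCoR in an intron (chr4:136689255-136689467, nearest protein-coding gene Lactbl1). Just outside it, HDAC3 centres lay 200 bp from SMRT at the promoter of D730003I15Rik (chr1:191224296-191224508), 196 bp from NCoR near Aspg (chr12:112094608-112094820) and 195 bp from SMRT near Btg1 (chr10:96686417-96686629).

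HDAC3-only peaks close to a partner and those far from one were both often at promoters. Of the 157 HDAC3-only peaks with a partner centre within 1 kb, 39 were at promoters (24.8%) and 32 CpG island-like (20.4%), and of the 269 with none, 78 (29.0%) and 76 (28.3%). Kept to those 269, the promoter odds ratio against other HDAC3 peaks was 3.68 and that of CpG island-like sequence 6.97. Among the 157, 100 had NCoR but no SMRT within 1 kb, 54 had both and 3 SMRT alone. At the 39 promoters with a partner within 1 kb, the partner lay downstream of the HDAC3 centre in 27 and upstream in 12.

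HDAC3-only peaks had another HDAC3 peak within 10 kb less often than the rest, 164 of 426 (38.5%) against 45.3%, with an odds ratio of 0.756 (0.620 to 0.922) and an adjusted p of 0.00702. Away from promoters the shares were 42.7% and 45.7%, with an odds ratio of 0.886 (0.705 to 1.11) and an adjusted p of 0.434. Within 1 kb the order turned, with an HDAC3 neighbour at 63 HDAC3-only peaks (14.8%) and 6.06% of the others. The odds ratio was 2.69 (2.04 to 3.55) and the adjusted p 6.62e-10 in Fisher's exact test, in a comparison added after the data were seen. Most HDAC3 peaks carry a partner, so this comparison is tied to the distances that chose the peaks, and no conclusion is drawn from it. Of those 63, 61 also had a partner within 1 kb, and their neighbours were mostly HDAC3 peaks with both partners (39) or with NCoR (19). Among the 269 peaks with no partner within 1 kb, 2 had an HDAC3 neighbour that near. Only 4 HDAC3-only peaks had another HDAC3-only peak within 1 kb, and 16 within 10 kb.

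The 5 HDAC3-only peaks farthest from any start site lay from 232092 to 307997 bp from one, in an intron near Ptbp2, in an intron of Rad51b, and between genes near Fam135b, Thrb and Trim32. The peak near Fam135b (chr15:70451401-70451613) was also the farthest from a partner, with NCoR 1085886 bp and SMRT 1395719 bp away, and its 500 bp window held no CpG. The Rad51b peak had an NCoR centre 354 bp away. The other 3 had theirs 3855 bp or more away.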

How the data were processed

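ChIP-seq of HDAC3, NCoR and SMRT in fed Bcl6 fl/fl livers was available as 3 deposited lists of peak positions, with no height, score, p-value or value per library. Per the study's methods, the authors aligned 75 bp single-end reads to mm10 with Bowtie 1.1.1, kept unique alignments and 1 tag per position, and called peaks with HOMER on 3 pooled libraries against input, keeping those that DESeq2 placed at least 2-fold over input at an FDR under 0.05. The depth of the libraries is therefore unknown here. No column of the authors' own comparisons was present.

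Peak centres were the mean of start and end. HDAC3 centres with no NCoR or SMRT centre within 200 bp were taken, and these peaks and all gene and motif lists were chosen with earlier results of these data known. Start sites and features were from GENCODE M21 (basic), sequence from GRCm38.p6. Promoters ran from 1000 bp before to 100 bp after a start site. CpG island-like windows were 500 bp, motif windows 200 bp, with 19 motifs as fixed strings on both strands. The 29 gene lists were given to the nearest protein-coding start site. Shares were compared by two-sided Fisher's exact test with Benjamini-Hochberg adjustment at a threshold of 0.05, in Python 3.11.15 with SciPy 1.17.1, after a check on simulated sequences and positions. Alternatives were other distances, comparison groups, promoter, island and neighbour definitions, windows and masked sequence.

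Genes named were those nearest to 3 or more HDAC3-only peaks, those of the metabolic, clock, immediate early, heat shock and hepatocyte factor lists with such a peak at the promoter, the 10 promoter peaks closest to a start site, up to 5 promoter peaks for each motif past the threshold, the 5 peaks farthest from a start site, 3 on each side of the distance threshold, and Bcl6, Ncor1 and Hdac3. A gene that the rule names, and the list that holds it, are not reported here.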

Additional observations from a re-analysis of the deposited data

How the results depend on the processing

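Values here are odds ratios against other HDAC3 peaks unless counts are named. Over all alternatives the promoter odds ratio ran from 1.78 to 4.31, that of CpG island-like sequence from 3.36 to 10.9, that of a downstream position from 1.76 to 3.16 and that of protein-coding promoters from 2.21 to 3.58, all past the threshold. Of 126 alternatives for the main comparisons and counts, 98 left the direction and call of a comparison as they were, or a count at or near its main value. The number of HDAC3-only peaks was 715 with centres within 100 bp and 269 with 1000 bp. An HDAC3 neighbour within 10 kb fell short of the threshold against peaks with NCoR but not SMRT (0.967), within 5 kb (0.958) and away from promoters (0.886). The X chromosome passed with centres within 100 bp (1.93, p of 0.0209, Fisher's exact test) and against peaks with both partners (2.22, p of 0.0401), and bidirectional promoters fell short without partners within 1000 bp (1.61) and against peaks with NCoR but not SMRT (1.60). An HDAC3 neighbour within 1 kb turned to 0.116 where peaks with a partner within 1000 bp were left out, by the construction of that alternative, since most HDAC3 neighbours carry a partner.

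Motifs called more frequent numbered 3 in the main comparison, 5 with centres within 100 bp and 5 against peaks with both partners. They numbered 4 with repeat-masked bases removed, 1 against peaks with NCoR but not SMRT and 0 in 100 bp windows. Those called less frequent numbered 1, and 3 with centres within 100 bp, 2 without partners within 1000 bp and 2 against peaks with both partners. At promoters the count of less frequent motifs was 1, and 0 without partners within 1000 bp, against peaks with NCoR but not SMRT and in 100 bp windows, 2 against peaks with both partners and 2 on autosomes alone, while the count of more frequent ones rose from 0 to 2 against peaks with both partners. Away from promoters the more frequent count of 1 was 2 with centres within 100 bp, where 1 was less frequent, and 0 against peaks with NCoR but not SMRT, in 100 bp windows and with repeat-masked bases removed. The cause was not tested in any of these. At unadjusted p under 0.05 there were 5 motifs over all peaks, 4 at promoters and 2 away from them. C/EBP away from promoters, with 0.985 and no call, lay at 1.001, 1.02, 1.17, 1.09 and 1.06 with centres within 400 bp, without partners within 1000 bp, against peaks with NCoR but not SMRT, in 100 bp windows and with repeat-masked bases removed, never past the threshold.

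A stricter peak threshold and leaving out each replicate were not run, since the lists carry positions from pooled libraries. No paired analysis was possible because the lists hold no value for a single library. The lists leave peak strength and animal-to-animal spread unmeasured.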

Other observations

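Several HDAC3-only peaks lay deep in gene bodies, in coding exons far from any annotated start site. They were chosen after their values were seen. Of the 18 coding exon peaks, those in Pdia6, a protein disulfide isomerase, Cmbl, a hydrolase, and Rimkla, a ligase of glutamate, lay 14433, 13159 and 24502 bp downstream of the start site. Their 500 bp windows had a GC content of 46.0, 44.4 and 51.0%, and none was CpG island-like. Kyat3, a kynurenine aminotransferase, had a pair of HDAC3-only peaks in coding exons, 3062 bp apart and 22104 and 25166 bp from its start site, with NCoR centres 3101 and 6163 bp away.

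Genes nearest to 2 HDAC3-only peaks were Banp, Dio3, Dpf3, Fgd2, Kyat3, Lrp10, Parp16, Phlda1, Pim1, Rcan2, Slc41a2, Thrb, Uchl4, Zc3h12a, Zfp395 and 5830473C10Rik. Out of all HDAC3 peaks nearest to the gene, this ran from 2 of 2 at Lrp10 and Uchl4 to 2 of 14 at Dio3. Some lay far from the gene, as at Phlda1, 110939 and 120006 bp from its start site. No gene in this list was tested. Thrb encodes a thyroid hormone receptor and Dio3 the deiodinase that inactivates the hormone. One of the Thrb peaks lay 246474 bp upstream of its start site, with the nearest NCoR centre 246405 bp and the nearest SMRT centre 240829 bp away. The other Thrb peak, in an intron, had an NCoR centre 290 bp away. At the Dio3 peaks NCoR centres lay 506 and 436 bp away and SMRT centres 522 and 399 bp. In all, 22 NCoR peaks had Thrb as nearest gene and 20 had Dio3.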
